A study of Mus musculus with 21 samples.

Results

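Mouse embryos whose recipient zygote was enucleated and given a transferred genome at interphase were compared with intact interphase zygotes, to see which RNA of the recipient was lost and which was still present about a day later. The arrays were chosen by their titles, 2 of interphase nuclear transfer embryos and 3 of zygotes at interphase, which makes 5 of the 21 arrays of the series. The zygotes were collected 24 to 28 h after the oocyte donor received hCG, the hormone used to induce ovulation, and the transfer embryos at 48 to 50 h after hCG. All were cultured in KSOM medium, and RNA of 20 embryos was pooled for an array. Strain, genotype, donor cell and the hours since interphase transfer are not given in the labels. The series title places the experiment in a study of which nuclear factors of the recipient reprogramming needs. Embryos of the same age served as references, namely 2-cell embryos (2 arrays, 48 to 50 h after hCG) and genomeless embryos (2 arrays, enucleated, given no genome and collected 22 to 24 h later, which also corresponds to 48 to 50 h). Age and transfer differ together between the main groups and cannot be told apart in that contrast. In bulk samples of pooled embryos, fewer embryos with an RNA and less of that RNA in each embryo cannot be told apart either.

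The zygote inherits its RNA from the oocyte. During oocyte maturation and the first cell cycles of the mouse, deadenylation shortens the tails of these maternal RNAs and most of them are degraded, while the embryonic genome becomes active in the 2-cell stage. At interphase the zygote holds its nuclear proteins inside the pronuclei, so that enucleation at this phase also removes proteins stored in the nucleus. In mitosis the nuclear envelope is open and such proteins lie in the cytoplasm.

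The 5 arrays differed in brightness. Zygote arrays A, B and C had a mean background-subtracted signal of 166.43, 122.15 and 135.83 and detected 7787, 6933 and 7111 of 24613 probes at a detection p below 0.01. Transfer array A had a mean signal of 535.14 and detected 5816 probes, and transfer array B had 12.79 and 3412. Transfer A was hybridised on chip 6 and transfer B on chip 5, while the zygotes were on chips 1 and 4. No chip held both groups, so chip and group cannot be told apart. Zygotes shared a chip only with embryonic stem cells, which lay on no other chip, so the random chip effect given below cannot separate them either. Quantile normalisation gives every array the same distribution of levels, so differences are relative to the other RNAs of that array and no change in total RNA per embryo can be read from them. After normalisation, the median SD between replicates was 0.51 log2 units in transfer embryos and 0.28 in zygotes. The transfer arrays correlated at 0.674 with each other over the genes tested, and transfer A correlated at 0.908 with the genomeless array of the same chip. Nothing in the labels says whether the arrays came from separate collections of embryos, so p-values measure only the spread between these samples, which may be technical.

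Much of the zygote's RNA was no longer detected after transfer, least often among its most abundant RNAs. Of 4604 genes detected on all 3 zygote arrays, transfer A detected 3556 (77.2%) and the dim transfer B 2056 (44.7%). Both transfer arrays detected 1908 (41.4%), transfer A alone 1648 (35.8%), transfer B alone 148 (3.21%) and neither 900 (19.5%). For scale, 2-cell embryos of the same age detected 79.1% on each array, genomeless A 66.9% and genomeless B, with a mean signal of 11.25, 33.3%. Split into 5 equal classes by zygote level, in the lowest class transfer A detected 54.6% and transfer B 25.1%. In the highest class they detected 98.0% and 80.6%. Few genes appeared anew, as 45 of 2230 genes detected on no zygote array (2.02%) were detected on both transfer arrays. The weakest probe detected stood at a log2 level of 8.04 on transfer B, 6.92 on transfer A and 6.49 to 6.64 on the zygote arrays, so an RNA below about 8 on transfer B was not detectable there.

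**Figure D1:**
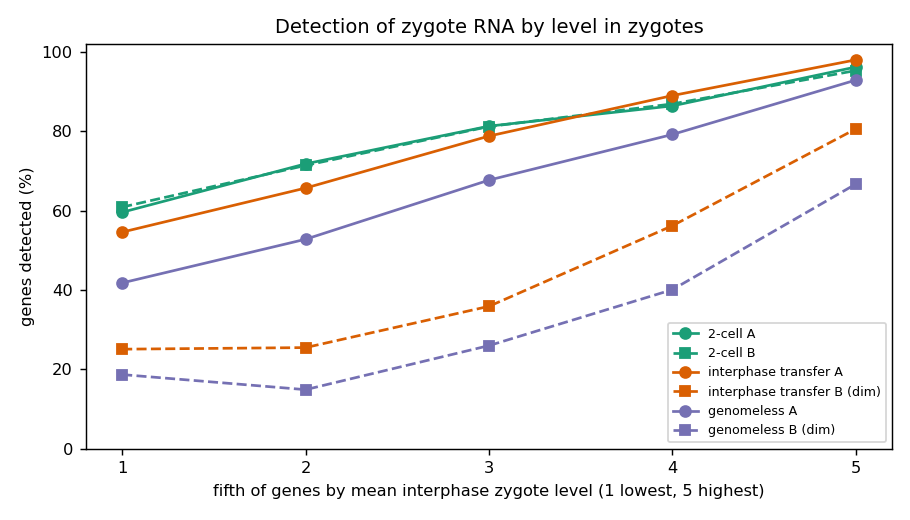
Percent of genes detected (detection p below 0.01; y axis) on each array, for the 4604 genes detected on all 3 interphase zygote arrays, split into 5 equal classes by their mean level in zygotes (x axis, 1 lowest). Transfer A runs from 54.6% to 98.0% beside the 2-cell arrays, and the dim transfer B from 25.1% to 80.6%, above the dim genomeless B.

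Over all 8527 genes tested, more RNAs were called lower than higher after transfer, a split that was nearly even without the dim arrays. With limma, 1490 genes (17.5%) passed an adjusted p of 0.05, 1027 of them lower (12%) and 463 higher (5.43%) than in zygotes, and 2576 had an unadjusted p below 0.05. Of the 1027 lower genes, 152 were detected on both transfer arrays, 350 on transfer A alone, 10 on transfer B alone and 515 on neither. Among the 4604 genes detected on all zygote arrays 991 were lower, from 9.45% in the lowest class of zygote level to 31.5% in the highest. The share of 12% set beside gene lists below covers all genes, also those undetected in zygotes. With undetected transfer arrays placed at their detection floor, 571 of the lower genes still stood at least 1 log2 unit below zygotes. Of the 463 higher genes, 410 were detected on both transfer arrays, and 74 on no zygote array. The transfer arrays lay below all zygote arrays in 1014 of the lower genes and above them in 460 of the higher genes. The background for such a separation is 25.7% of all genes lower and 19.4% higher.

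These counts rest on a spread shared over all groups that is narrower than the transfer arrays' own. When each group was given its own variance, 280 genes were called (214 lower, 66 higher), all of them among the 1490. The 5 arrays alone gave 407 calls and array weights 371. The direction also depended on scaling, with 31.1% of calls higher after quantile normalisation, 9.75% with median scaling (67 higher, 620 lower) and 14.3% in the authors' mean-scaled values (259 higher, 1548 lower). Without the dim arrays, transfer B among them, 49.0% of calls were higher (899 higher, 935 lower), and without transfer B alone 42.4% (460 and 625). The median difference over all genes was -0.04 in the first, 0.13 in the second and -0.29 in the last of these scalings. Without zygote B 953 genes were called and 254 were higher, without zygote C 293 were higher, and without transfer A 871 were higher. A set of 139 genes, 132 lower and 7 higher, was called in the same direction in all 17 alternatives that keep both transfer arrays.

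The RNAs with the largest losses served varied cellular tasks. Cdc42ep2, an effector of the small GTPase Cdc42, read 10.43, 11.64 and 11.52 log2 units on zygote arrays A, B and C, and 6.17 and 6.26 on transfer arrays A and B. Neither transfer array detected it, and it was at least 13.2-fold lower (limma, adjusted p = 1.86e-05), while 2-cell embryos still averaged 10.03. For such a bound an undetected array is set at its weakest detected signal, or at the measured value where that is above it. Txndc12, a thioredoxin-like protein of the endoplasmic reticulum, read 10.31, 10.62 and 10.77 in zygotes and 6.28 and 5.80 after transfer. It too was undetected on both transfer arrays and at least 8.49-fold lower (adjusted p = 9.87e-06). The 2-cell mean was 6.93, so Txndc12 was low in normal embryos of that age as well.

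The other 10 of the 12 largest losses were detected on transfer A and not on transfer B. Uqcrc2, a core subunit of respiratory complex III, read 12.03, 11.82 and 11.35 in zygotes and 7.35 and 7.47 after transfer. Both transfer arrays were far below every zygote array, and transfer B did not detect it, with a log2 difference of -4.32 ± 0.36 (SE; adjusted p = 1.01e-05), or -4.04 with transfer B at its floor. Eif2b3, a subunit of the exchange factor that reloads initiation factor 2 with GTP, read 10.75, 11.07 and 10.56 in zygotes against 7.01 and 5.83 (-4.37 ± 0.39, adjusted p = 1.83e-05, -3.27 with the floor). Urod, the uroporphyrinogen decarboxylase of heme synthesis, read 10.48, 11.60 and 11.41 against 7.68 and 6.0 (-4.32 ± 0.44, 5.76e-05, -3.30 with the floor). Both RNAs stood high in 2-cell embryos, at means of 9.95 and 11.93. Cisd1, an iron-sulphur protein of the outer mitochondrial membrane, read 11.33, 12.05 and 12.01 against 7.74 and 6.06 (-4.90 ± 0.61, 0.000177, -3.91 with the floor).

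Further large losses concerned RNA and nuclear proteins. Rrp1b and Ddx24, a nucleolar processing factor and a DEAD-box helicase, differed by -4.49 ± 0.66 (adjusted p = 0.000582, -3.47 with the floor) and -4.41 ± 0.70 (0.00086, -3.45 with the floor). Elp3, the catalytic subunit of the tRNA-modifying Elongator complex, differed by -4.59 ± 0.70 (0.000675, -3.50 with the floor). Their levels on transfer A lay between 7.77 and 8.11 and on transfer B between 5.87 and 6.12, below every zygote array. H1f1, which encodes a linker histone, read 11.48, 12.28 and 12.72 in zygotes, 9.48 on transfer A and 6.06 on transfer B. It was far below zygotes on both (-4.39 ± 0.74, 0.00126, -3.40 with the floor). Gnptg, a subunit of the enzyme that tags lysosomal hydrolases with mannose 6-phosphate (-4.87 ± 0.66, 0.000339, -3.98 with the floor), and Pdap1 (-4.58 ± 0.58, 0.000203, -3.57 with the floor) complete the list. Both were high in 2-cell embryos, at 11.37 and 12.28. All 12 genes were called without transfer B as well. Ddx24 was not called with a variance per group and H1f1 not with the 5 arrays alone, and the other 10 were called in all 21 alternatives.

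The 8 RNAs with the largest gains served varied tasks, and 3 of them were detected on no zygote array. Rpp25, a subunit of ribonucleases P and MRP, read 6.05, 6.54 and 6.34 in zygotes, where no array detected it, and 8.48 and 12.25 on transfer A and B. Both transfer arrays were higher, by very different amounts, and the bound was at least 13.8-fold (adjusted p = 0.00469). Ier3, an immediate early response gene, read 6.37, 6.39 and 6.48 against 10.16 and 10.40, at least 13-fold higher (0.0184). Here the transfer arrays were alike, and the 2-cell mean was 6.28. Slc38a2, a neutral amino acid transporter, read 5.97, 5.69 and 5.75 against 10.08 and 9.08, at least 8.01-fold higher (0.0052), and was detected on no zygote and no 2-cell array.

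The remaining 5 of the 8 largest gains had been detected in zygotes. Mt1, a metallothionein, read 8.27, 8.57 and 10.35 in zygotes and 11.88 and 13.88 after transfer (3.82 ± 0.64, adjusted p = 0.00125), and 13.92 on average in 2-cell embryos. Hs2st1, which sulphates heparan chains, read 7.65, 7.41 and 7.13 against 10.77 and 11.25 (3.61 ± 0.62, 0.00145). Its 2-cell mean was 7.23 and its genomeless mean 11.14, so Hs2st1 was high in both kinds of enucleated embryo and low in 2-cell embryos. Polr2f, a subunit shared by nuclear RNA polymerases, differed by 3.84 ± 0.92 (0.0108), Romo1, a regulator of mitochondrial reactive oxygen, by 3.73 ± 0.57 (0.000684), and Pigp, of GPI anchor synthesis, by 3.58 ± 0.57 (0.000862). Of the 8 genes only Hs2st1 was called in all 21 alternatives. With median scaling Ier3, Slc38a2, Polr2f, Romo1 and Pigp were not called, and with the 5 arrays alone Rpp25 and Mt1. Array weights ended the calls of Ier3, Slc38a2 and Mt1. Ier3 and Slc38a2 were not called when each group had its own variance, Rpp25 and Ier3 not without transfer B, Ier3 not without zygote B and Polr2f not without transfer A.

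Some markers of other cell types stood high on transfer B without being called. Of 24 fibroblast markers on the array, zygotes detected 2, 0 and 0, transfer A 2 and transfer B 4, with a summed level of 10.66 to 10.76, 10.89 and 13.01 log2 units. The calcium-binding protein gene S100a6 read 6.20 to 6.49 in zygotes, 6.85 on transfer A and 12.38 on transfer B (3.26 ± 1.35, adjusted p = 0.114). The keratin gene Krt17 read 6.17 to 6.32, 6.11 and 9.84 (1.73 ± 0.81, 0.165), and the filament gene Vim 6.37 to 6.46, 7.66 and 8.71 (1.77 ± 0.93, 0.221). None of the 10 tested fibroblast, 10 keratinocyte, 5 cumulus and 5 blood cell markers was called. Cumulus markers numbered 1 of 19 on each zygote array and 2 and 1 on transfer A and B, and blood markers 0 to 1 of 16 on all 5 arrays. Epithelial markers were detected at 5, 3 and 3 of 17 in zygotes and 5 and 3 after transfer, with summed levels of 10.49 to 11.08, 11.35 and 11.39. Krt17 was not typical of these markers. Over the 10 tested, the median relative to the zygote mean was 0.07 on transfer A and -0.37 on transfer B. Without transfer A, Itga6 and Trp63 differed from zygotes by -1.97 and -0.52, and Sfn by 2.35. The medians of the 10 tested fibroblast markers were 0.07 and 0.47. S100a6 and Krt17 averaged 11.85 and 10.45 in genomeless embryos. The part of other cells in the higher genes was not tested.

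Some RNA lay close to its zygote level, judged by the spread shared over all groups. In 48 genes (0.563% of those tested) that all 5 arrays detected, the 95% confidence interval of the difference lay inside 1 log2 unit of 0. Sec11a, a catalytic subunit of the signal peptidase, read 13.05, 12.80 and 12.88 in zygotes and 12.91 and 13.25 after transfer (interval -0.30 to 0.65). Sin3a, the scaffold of a histone deacetylase corepressor, read 12, 11.65 and 11.91 against 12.17 and 11.76 (-0.52 to 0.75). Transfer arrays lay among or beside the zygote arrays in both. Ngdn, which encodes a partner of translation initiation factor 4E, kept an interval of -0.71 to 0.52, and Zfyve21 one of -0.66 to 0.77.

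Among the same closely kept genes, some had moved in 2-cell embryos. Abcb4, a phospholipid transporter, read 9.63, 9.58 and 9.17 in zygotes, 9.69 and 9.08 after transfer, and 6.91 on average in 2-cell embryos. It was 2.48 ± 0.29 higher after transfer than in 2-cell embryos (adjusted p = 3.29e-05). The phosphodiesterase gene Pde10a was likewise 1.38 ± 0.31 higher than in 2-cell embryos (0.00454). Diablo, a mitochondrial activator of apoptosis, and Dnttip1, of a histone deacetylase complex, stood at transfer means of 8.06 and 8.67 and at 2-cell means of 10.40 and 11.46. Transfer minus 2-cell differences were -2.34 ± 0.32 (0.000115) and -2.80 ± 0.38 (0.000113). Under the mean-scaled values the differences of these 8 genes from zygotes ran from -0.91 to 0.80. None was called under any alternative, which follows in part from their choice by intervals near 0. Those intervals rest on a shared spread narrower than that of the transfer arrays. The difference of Dnttip1 was -0.54 without transfer B and 0.55 without transfer A.

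**Figure D2:**
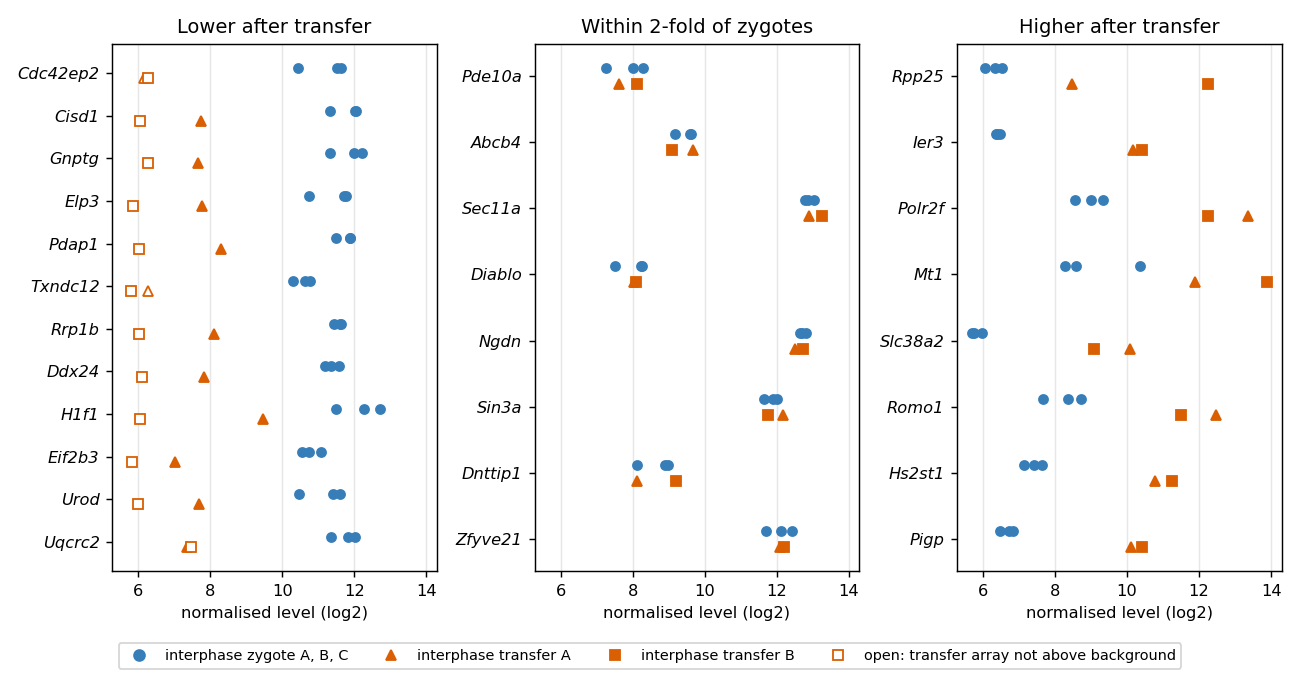
Normalised log2 level (x axis) of the 12 most lowered, 8 closely kept and 8 most raised genes on 3 interphase zygote arrays (blue circles), transfer A (orange triangles) and transfer B (orange squares). Open symbols are transfer arrays on which the gene was not detected. In the left panel 10 genes are open on transfer B alone and 2 on both, and in the right panel every transfer symbol is filled.

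Many oocyte and maternal-effect genes fell, and most stayed detectable. All 36 tested members were detected on all 3 zygote arrays, 24 of them on both transfer arrays, 6 on transfer A alone and 6 on neither. Called lower were 13 and called higher 1 (all genes 12% and 5.43%), with a median difference of -1.11 against -0.04 over all genes. In the class of genes with the highest zygote levels, 31.5% were called lower, with a median of -0.94. Zar1, needed for the first cleavage divisions, read 10.73, 11.15 and 11.47 in zygotes and 7.11 and 7.89 after transfer (-3.62 ± 0.78, adjusted p = 0.00583, -3.54 with the floor). Transfer A was close to the 2-cell mean of 6.77, and transfer B did not detect it. Gja4, the connexin that couples oocyte and granulosa cells, read 11.93, 13.14 and 13.09 against 9.47 and 9.40 (-3.28 ± 0.44, 0.000339), and Oas1e 13.11, 12.47 and 12.47 against 9.74 and 9.14 (-3.24 ± 0.47, 0.000516). Both transfer arrays detected these 2 genes at levels between those of zygotes and 2-cell embryos, whose means were 6.85 and 8.18. Npm2, a histone chaperone of oocytes, differed by -2.29 ± 0.47 (0.00452), Padi6, of the cytoplasmic lattices, by -1.94 ± 0.34 (0.00167), and Tle6, of the subcortical maternal complex, by -1.51 ± 0.37 (0.0113).

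Transcription factors of the growing oocyte were called lower and were undetected on both transfer arrays. Nobox was at least 2.18-fold lower (adjusted p = 0.000297) and Lhx8 at least 1.31-fold (0.000245), while Figla (0.00355) was too weak in zygotes, at a mean of 6.98, for a bound. The meiotic kinase gene Mos, at least 1.31-fold lower (0.00319), was undetected as well. All 4 were weak in zygotes, Nobox being the strongest at a mean of 8.60. Lhx8 and Mos, at 7.87 each, and Figla averaged less in zygotes than the weakest level detected on transfer B, 8.04. Missing detection on transfer B therefore shows no fall of these RNAs.

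Several abundant oocyte RNAs were not called. Bmp15, a growth factor secreted by the oocyte, read 13.76, 13.85 and 13.27 in zygotes and 12.89 and 12.20 after transfer (-1.08 ± 0.43, adjusted p = 0.0992), and 8.14 and 8.98 in 2-cell embryos. Both transfer arrays lay below all zygote arrays and far above both 2-cell arrays, from which they differed by 3.99 ± 0.47 (3.29e-05). Its partner Gdf9 read 13.68, 13.79 and 13.76 against 13.33 and 12.26 (-0.95 ± 0.36, 0.0822). Nlrp5, of the subcortical maternal complex, read 13.18, 12.92 and 12.58 against 10.93 and 11.70 (-1.58 ± 0.53, 0.0566). Gdf9 and Nlrp5 also lay below zygotes on both transfer arrays, without passing the threshold. The zona pellucida gene Zp3 (-0.88 ± 0.49, 0.251) and Dppa3, which protects the maternal genome from demethylation (0.21 ± 0.61, 0.877), were not called. Obox5, of a homeobox family with near-identical members, was the 1 gene called higher (2.21 ± 0.53, 0.0107).

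Set against 2-cell embryos, 14 of the 36 oocyte genes were higher after transfer and 1 was lower (all genes 9.82% and 16.6%). The median difference from 2-cell embryos was 1.26. In 2-cell embryos 29 of the 36 were lower than in zygotes and 0 higher (all genes 15.9% and 15.7%), with a median of -2.46. The lower count of 13 was 11 without transfer B, 17 without transfer A, 13 with a random chip effect, and 6 with median scaling or with a variance per group. Probes of the Oas1, Obox and Nlrp families may also bind close relatives, and single members are uncertain.

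**Figure D3:**
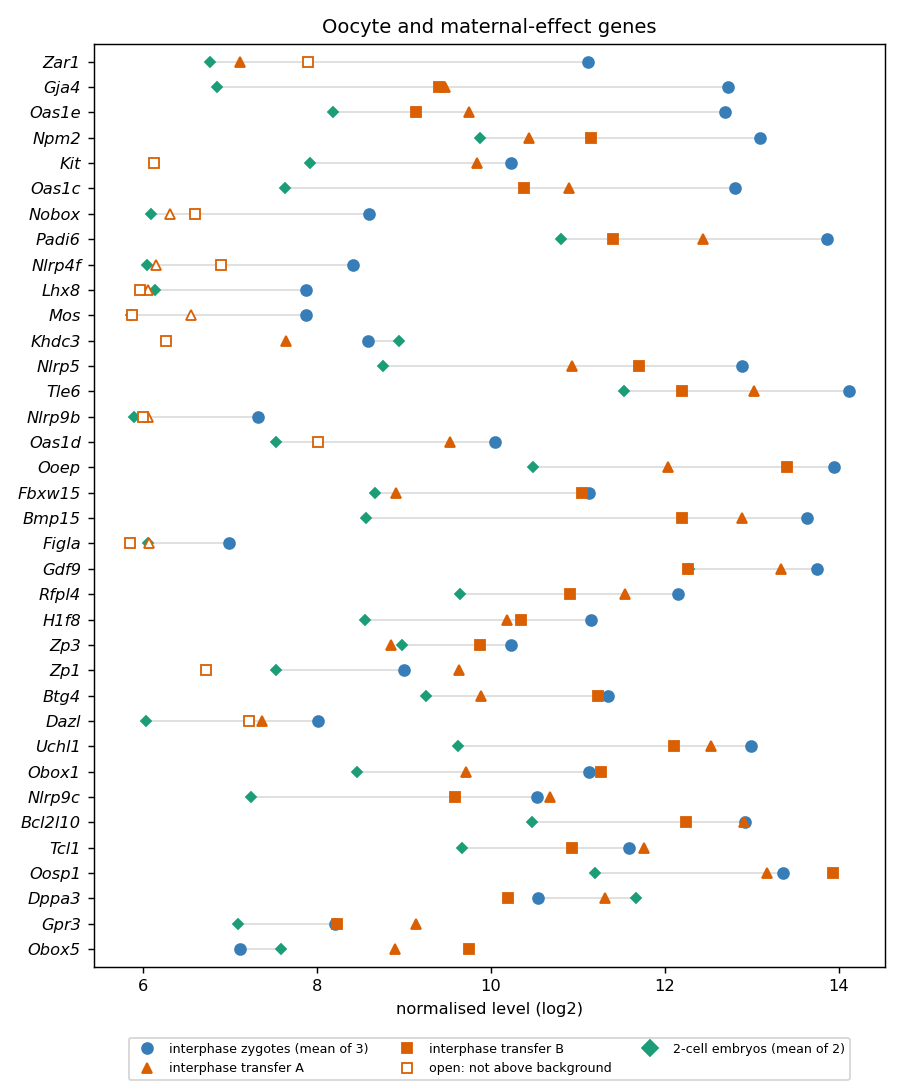
Normalised log2 level (x axis) of the 36 oocyte and maternal-effect genes, ordered by their difference, in interphase zygotes (mean of 3 arrays), transfer A, transfer B and 2-cell embryos (mean of 2 arrays). Open symbols mark transfer arrays without detection. Zar1 at the top lies near its 2-cell level after transfer, while Bmp15 lies near its zygote level.

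Part of the RNAs for mitosis fell. Of 41 M phase and spindle genes, 16 were called lower and 0 higher, against 12% and 5.43% of all genes, with a median of -1.18. Aurka, a kinase of the spindle poles, read 11.68, 11.88 and 11.20 in zygotes and 7.69 and 7.14 after transfer (-4.17 ± 0.30, adjusted p = 7.63e-06). Nusap1, a microtubule-binding protein, read 13.25, 13.08 and 12.63 against 9.72 and 9.07 (-3.59 ± 0.52, 0.000495), and the kinetochore gene Zwint 10.82, 11.36 and 11.09 against 7.72 and 7.94 (-3.26 ± 0.40, 0.000168). In all 3 genes both transfer arrays were far below zygotes. Transfer B did not detect Aurka and Zwint, whose differences were -3.72 and -3.21 with that array at its floor. Prc1, a crosslinker of the central spindle, read 12.89, 12.04 and 11.78 in zygotes, 10.05 on transfer A and 6.04 on transfer B (-4.20 ± 0.83, 0.00346, -3.19 with the floor). Transfer B did not detect it.

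Kinases of mitotic entry and the spindle checkpoint were among the lower M phase genes. Cdk1 (at least 1.77-fold, adjusted p = 0.0136), Aurkb (at least 3.49-fold, 0.00274) and the checkpoint kinase Ttk (at least 1.73-fold, 0.000966) were undetected on both transfer arrays. Plk1, detected on both, differed by -1.50 ± 0.36 (0.0113), and Bub3, detected on transfer A, by -2.22 ± 0.48 (0.00583, -1.70 with the floor). Cdk1 averaged 10.20 in 2-cell embryos against 8.30 in zygotes, and Aurkb 8.70 against 9.28. Of the 41 genes, 12 were lower after transfer than in 2-cell embryos and 2 higher (all genes 16.6% and 9.82%). The count of 16 was 9 without transfer B, 4 with a variance per group and 10 with median scaling.

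DNA replication genes gave 8 lower and 2 higher of 43, against 12% and 5.43% of all genes, with a median of -0.64. The helicase subunits Mcm5 (-2.15 ± 0.44, adjusted p = 0.00404) and Mcm4 (-2.86 ± 0.91, 0.0443, -1.95 with the floor) and the single-strand binding protein gene Rpa1 (-2.91 ± 0.85, 0.0292, -2.29 with the floor) were lower. Mcm6 differed by -3.06 ± 0.63 (0.00464, -2.15 with the floor), but its probes disagreed in direction. On transfer A, Mcm4 and Rpa1 read 9.80 and 10.64, and on transfer B 6.22 and 6.79, where they were undetected. Without transfer B the differences of Mcm4 and Rpa1 were -1.07 and -0.98, and the genes were called in 10 and 11 of 21 alternatives. Rfc5, a clamp loader subunit, was higher, at 8.42, 8.32 and 8.24 in zygotes and 10.33 and 11.30 after transfer (2.49 ± 0.37, 0.000596), while its relatives Rfc3 (0.0225) and Rfc4 (at least 1.05-fold, 0.0484) were lower. Rfc3 was undetected on transfer B, and with that array at its floor its difference was -0.24. The lower count was 2 without zygote B or with a variance per group, 3 without transfer B or with median scaling, 4 without zygote A or C, and 17 in the mean-scaled values.

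Genes that control maternal RNA moved in both directions. Deadenylation and decay genes gave 11 lower and 5 higher of 45, against 12% and 5.43% of all genes, with a median of 0.03. Btg1, an adaptor of the CCR4-NOT deadenylase, read 9.36, 12.01 and 12.37 in zygotes and 7.07 and 6.99 after transfer (-4.21 ± 0.62, adjusted p = 0.000568, -3.69 with the floor). All 3 zygote arrays were higher, zygote A by the least. Parn, a poly(A)-specific ribonuclease, was at least 4.22-fold lower (0.00134) and undetected on both transfer arrays, as were the deadenylase components Cnot3 (at least 1.56-fold, 0.00156) and Cnot10 (at least 1.49-fold, 0.000852). Celf1, which recruits deadenylases to GU-rich sites, differed by -2.97 ± 0.44 (0.000568, -2.15 with the floor), with probes that disagreed in direction. Higher were the AU-rich element binding gene Zfp36l1 (at least 3.89-fold, 0.00156), Pum2 (1.60 ± 0.36, 0.00691), the m6A reader Ythdf3 (2.40 ± 0.56, 0.00925, with probes that disagreed), Lsm7 (2.65 ± 0.69, 0.0171) and Smg6 (1.16 ± 0.22, 0.00263).

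The deadenylase regulators known from the mouse oocyte were mostly uncalled. Btg4, which licenses maternal RNA clearance, read 11.85, 11.02 and 11.15 in zygotes and 9.88 and 11.23 after transfer (-0.78 ± 0.69, adjusted p = 0.489). The groups overlapped. Cnot6l, a catalytic deadenylase subunit, read 11.11, 10.84 and 10.44 against 12.31 and 10.62 (0.67 ± 0.46, 0.357), again with overlap, and its probes disagreed in direction. The 2-cell mean of Cnot6l was 7.07, and transfer embryos exceeded it by 4.40 ± 0.50 (2.69e-05). Zfp36l2 was detected on no zygote and no transfer array.

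RNA storage and polyadenylation genes gave 10 lower and 3 higher of 35, against the same background, with a median of -0.41. Members of the cleavage stimulation factor parted ways. Cstf1 read 9.35, 9.75 and 9.65 in zygotes and 7.30 and 6.08 after transfer (-2.90 ± 0.52, adjusted p = 0.00199, -1.92 with the floor), and Cstf2 8.95, 7.28 and 8.29 against 11.28 and 11.91 (3.43 ± 0.50, 0.000519). Neither gene had overlapping groups. The double-stranded RNA binding genes Stau1 (-2.68 ± 0.44, 0.00112, -2.44 with the floor) and Stau2 (-2.72 ± 0.85, 0.0403, -1.69 with the floor) were lower and undetected on transfer B. Stau2 read 10.39 on transfer A, near its zygote mean of 10.91. Its difference was -0.51 without transfer B, and it was called in 9 of 21 alternatives. The poly(A) polymerase genes Papola (at least 2.2-fold, 0.00576, with probes that disagreed) and Papolg (0.00896, too weak in zygotes for a bound) were lower and undetected after transfer. The cytoplasmic polyadenylation gene Cpeb3 was higher, by 1.70 ± 0.37 (0.00648). Without transfer B, 7 decay genes and 5 storage genes were lower, and with a variance per group 1 and 4.

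Of the genes for making ribosomes, those called were lower, while more genes for the ribosome itself were called higher than lower. Ribosome biogenesis genes gave 14 lower and 0 higher of 55, against 12% and 5.43% of all genes, with a median of -0.64. Of the 37 detected on all zygote arrays, 12 were detected on both transfer arrays and 15 on neither. Imp4, of the small-subunit processome, read 11.99, 12.50 and 12.08 in zygotes, 10.17 on transfer A and 7.79 on transfer B (-3.21 ± 0.71, adjusted p = 0.00669, -3.09 with the floor). Brix1, needed for the large subunit, read 11.66, 11.76 and 11.70 against 8.84 and 6.10 (-4.23 ± 1.10, 0.0168, -3.26 with the floor). Both were lower on transfer A and undetected on transfer B. Utp11 (at least 5.24-fold, 0.00133) and the RNA polymerase I subunit genes Polr1e (at least 1.33-fold, 0.0145) and Polr1d (-1.74 ± 0.39, 0.00749) were lower too. In 2-cell embryos 33 of the 55 were higher than in zygotes and 0 lower (all genes 15.7% and 15.9%). After transfer 39 were lower than in 2-cell embryos and 0 higher (all genes 16.6% and 9.82%). The lower count of 14 was 8 with median scaling and 4 with a variance per group. Wdr74, a large-subunit assembly factor, averaged 11.07 in 2-cell embryos and 7.49 in zygotes, and read 5.89 and 6.04 after transfer, undetected on both arrays.

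Ribosomal protein genes gave 10 higher and 1 lower of 50, against 5.43% and 12% of all genes, with a median of 0.30. Rpl8 read 8.17, 7.89 and 8.31 in zygotes and 10.86 and 10.62 after transfer (2.62 ± 0.32, adjusted p = 0.000168). Rps28 read 8.57, 9.45 and 10.12 against 11.61 and 13.22 (3.04 ± 0.47, 0.000702), and Rps3 6.71, 7.04 and 7.22 against 8.52 and 10.55 (2.55 ± 0.63, 0.0121). Transfer arrays lay above all zygote arrays in each of them. The 2-cell means were 12.77, 13.21 and 13.09, and transfer minus 2-cell differences were -2.03 ± 0.35 (0.000733) for Rpl8 and -3.56 ± 0.69 (0.00164) for Rps3. Over the list, the median was -0.11 on transfer A and 1.06 on transfer B relative to the zygote mean. The higher count of 10 was 6 without transfer B, 18 without transfer A, 1 with the 5 arrays alone, 4 with a variance per group and 5 with median scaling. Ribosomal protein probes may bind pseudogene transcripts, and Rps27 and Rps27l are close relatives.

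Translation factors gave 6 lower and 2 higher of 58, near the background of all genes, with a median of -0.24. Within them, subunits of initiation factor 2B were both far lower, as Eif2b4 read 10.86, 11.01 and 10.81 in zygotes and 7.59 and 6.17 after transfer (-4.02 ± 0.33, adjusted p = 1.01e-05, -3.08 with the floor) beside Eif2b3 above. Eef1d, of the elongation factor 1 exchange complex, read 12.99, 13 and 12.99 against 9.69 and 10.55 (-2.87 ± 0.50, 0.00162). It averaged 13.01 in 2-cell embryos and 8.28 in genomeless embryos, so Eef1d was low in both kinds of enucleated embryo. The cap-binding inhibitor gene Eif4ebp1 was higher, at 2.36 ± 0.53 (0.00691). Splicing genes gave 10 lower and 4 higher of 46, against 12% and 5.43% of all genes, with a median of -0.04. The tri-snRNP genes Prpf3 (-2.84 ± 0.44, 0.000748, -1.90 with the floor) and Prpf6 (-2.53 ± 0.46, 0.0021) were lower, and Srsf10 (1.92 ± 0.31, 0.000897) and the core protein gene Snrpf (3.21 ± 0.95, 0.0303) higher. The splicing count of 10 was 5 without transfer B and 4 with median scaling.

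Proteasome genes were lower as a group count, 13 of 37 with 1 higher, against 12% and 5.43% of all genes, and had a median of -1.02. Psmc4, an ATPase of the regulatory particle, read 9.89, 10.97 and 10.43 in zygotes and 7.25 and 6.40 after transfer (-3.61 ± 0.57, adjusted p = 0.000811, -2.79 with the floor). Psma7, an alpha-ring subunit, was at least 6.44-fold lower (0.000592), with neither transfer array above background. Psmc5 (-2.55 ± 0.45, 0.00166) and Psma2 (-1.42 ± 0.34, 0.0105) were lower and still detected on both arrays. The higher member was the catalytic subunit gene Psmb6 (1.43 ± 0.46, 0.0472). Against 2-cell embryos 19 of the 37 were lower and 1 higher (all genes 16.6% and 9.82%). The count of 13 was 9 without transfer B or without zygote B, 8 with median scaling and 3 with a variance per group.

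Respiratory chain genes were called in both directions at about the shares of all genes. Of 65 oxidative phosphorylation genes, 8 were lower and 4 higher, near the background of all genes (12% and 5.43%). Besides Uqcrc2, Ndufs4 of complex I was at least 4.88-fold lower (adjusted p = 0.00169) and Sdhd of complex II at least 2.38-fold (0.000177), both undetected after transfer. Cox6a2, of complex IV, read 10.72, 11.85 and 12.13 in zygotes, 9.16 on transfer A and 6.52 on transfer B (-3.72 ± 0.82, 0.00653, -2.97 with the floor), with a 2-cell mean of 6.52. The complex IV genes Cox8a (2.42 ± 0.51, 0.0051) and Cox6b2 (2.41 ± 0.61, 0.0144) and the complex I genes Ndufa13 (1.81 ± 0.34, 0.00272) and Ndufb8 (1.69 ± 0.44, 0.016) were higher. With median scaling 10 were lower and 1 higher. Relative to the zygote mean, the median of the list was -0.51 on transfer A and 0.23 on transfer B.

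Heat shock and chaperone genes gave 7 lower and 2 higher of 56, near the background of all genes (12% and 5.43%). The cytosolic chaperonin subunits Cct3 (at least 6.49-fold, adjusted p = 0.00515) and Cct8 (-3.00 ± 0.57, 0.00281, -2.32 with the floor) were lower. Hspb1, a small heat shock protein, read 6.81, 7.27 and 7.60 in zygotes and 10.16 and 11.12 after transfer (3.42 ± 0.43, 0.000202). Both transfer arrays were well above all zygote arrays and above the 2-cell mean of 8.14, and Hspb1 was called in all 21 alternatives. Its genomeless mean was 9.81. The lower count of 7 was 4 without zygote A or with median scaling, 11 in the mean-scaled values, and 1 with the 5 arrays alone, while with array weights or a variance per group all 7 lost their calls.

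Of 33 p53 target and apoptosis genes, 4 were higher and 2 lower, against 5.43% and 12% of all genes, with a median of 0.59. Mdm2, the ubiquitin ligase that restrains p53, read 10.80, 9.23 and 10.09 in zygotes and 12.76 and 11.37 after transfer (2.02 ± 0.52, adjusted p = 0.0159). Trp53inp1, a p53 target, read 7.79, 7.09 and 7.28 against 10.60 and 10.08 (2.95 ± 0.88, 0.0326). The groups did not overlap in either gene. The survival gene Mcl1 (1.91 ± 0.37, 0.0029) was also higher, and Casp8, an initiator caspase, lower (-2.11 ± 0.33, 0.000765). Casp8 was undetected on transfer B, and its difference was -1.17 with that array at its floor. The genomeless means of Mdm2 and Trp53inp1 were 12.95 and 10.31, and both genes were thus high in enucleated embryos with and without a transferred genome. Their 2-cell means were 11.36 and 7.62, that of Mdm2 being level with transfer B. Transfer minus 2-cell differences were 0.71 ± 0.57 (0.4) for Mdm2 and 2.72 ± 0.97 (0.0514) for Trp53inp1, neither called. Mcl1 averaged 10.27 in 2-cell embryos and read 10.41 and 9.31 after transfer. The 4 higher genes were 1 without zygote B, 2 without zygote C and 6 without transfer B. With a variance per group none of the 4 was called, and in the mean-scaled values 2 genes were higher and 3 lower.

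Genes of the nucleus itself were near the background. Chromatin regulators gave 9 lower and 1 higher of 68 (median -0.14), and nuclear transport and lamina genes 5 lower and 2 higher of 46 (median -0.00). Banf1, which bridges chromatin and lamina, read 10.97, 12.12 and 11.99 in zygotes and 8.31 and 10.49 after transfer (-2.29 ± 0.59, adjusted p = 0.0151). Eed, of Polycomb repressive complex 2, differed by -1.88 ± 0.48 (0.0146). Smarca4, an ATPase of the BAF chromatin remodelling complex, read 7.08, 7.51 and 7.66 in zygotes, 8.63 on transfer A and 5.99 on transfer B, where it was undetected (-0.11 ± 0.59, 0.941). Its transfer arrays lay on either side of the zygotes. Smarce1, another BAF subunit, was higher on both (9.83 and 8.63 against 6.74, 7.03 and 7.05, 2.29 ± 0.51, 0.00678). Without transfer B, 2 chromatin genes and 3 transport genes were lower, without zygote B 3 and 2, without zygote C 5 and 2, without zygote A 5 and 5, and with a variance per group none of either list was called.

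Few pluripotency and 2-cell genes were called. Among 22 pluripotency regulators, 2 were higher and 1 lower (all genes 5.43% and 12%). Pou5f1 read 8.05, 8.04 and 8.27 in zygotes, 8.55 on transfer A and 6.12 on transfer B (-0.78 ± 0.69, adjusted p = 0.491). Nanog was detected on no zygote and no transfer array. Sox2 was detected on transfer B alone, at 8.50, and read 6.73 on transfer A (1.36 ± 0.44, 0.046). Its difference was 0.47 without transfer B. Sox2 was called in 8 of 20 alternatives. The nuclear receptor gene Nr5a2 was lower (-1.87 ± 0.54, 0.0289), at 8.59 on transfer A and undetected on transfer B. Its difference was -0.77 with transfer B at its floor and -0.50, not called, without that array, and it was called in 12 of 21 alternatives. Of 16 genes listed as 2-cell activation genes, 0 were higher after transfer than in zygotes and 1 was lower (all genes 5.43% and 12%). Their median was 0.14. In the 2-cell embryos of these data 12 of them were higher than in zygotes and 2 lower (all genes 15.7% and 15.9%), with a median of 3.26. Eif1a, Zfp352 and Tdpoz1 differed from zygotes by 0.60 ± 0.44 (0.384), 0.22 ± 0.50 (0.835) and 1.57 ± 0.76 (0.179). Arg2, an arginase, was the lower gene, at 12.52, 11.79 and 11.56 in zygotes and 8.15 and 8.97 after transfer (-3.39 ± 0.45, 0.000327). Its 2-cell mean of 8.61 was as low.

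**Figure D4:**
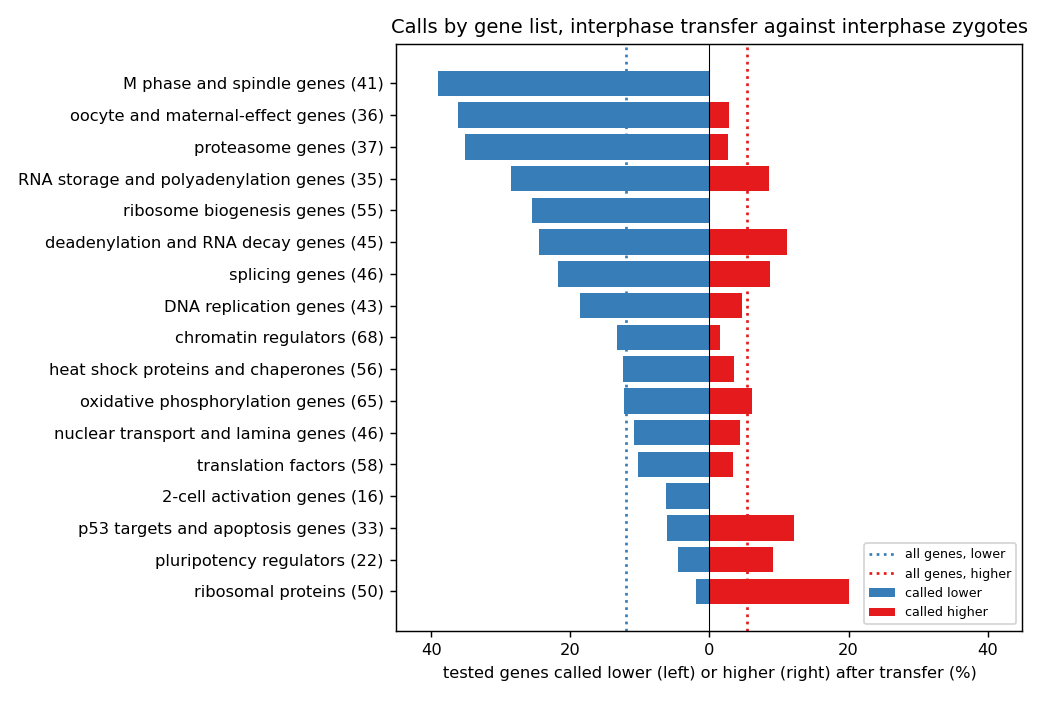
Percent of tested genes called lower (blue, left) or higher (red, right) after interphase transfer than in interphase zygotes, for each gene list with the number tested in parentheses. Dotted lines mark the share over all genes, 12% lower and 5.43% higher. M phase, oocyte and proteasome genes reach furthest left, and ribosomal proteins furthest right.

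How far the maternal RNA had been cleared was measured on genes chosen by the difference between drug controls and mitotic zygotes. The interphase zygote, transfer and 2-cell arrays did not enter that difference. They did enter the normalisation, the choice of probe and the shared spread behind its adjusted p. Drug controls (48 to 50 h after hCG, after exposure to nocodazole at mitosis) and mitotic zygotes (32 to 34 h) gave 1077 genes lost and 1138 raised, at an adjusted p below 0.05 and at least 1 log2 unit. On the lost genes, transfer embryos stood between zygotes and 2-cell embryos. Relative to the interphase zygote mean, the median of the lost genes was -0.83 on transfer A, -1.16 on transfer B, -1.02 and -1.44 on genomeless A and B, and -2.05 and -2.06 on the 2-cell arrays. Mitotic zygotes were at 0.14 to 0.16. Of the 1077 lost genes, 412 (38.3%) were lower after transfer than in interphase zygotes, against 12% of all genes, and 27 higher (2.51%). Nearly all lost genes were detected in zygotes, and of the 4604 genes detected on all zygote arrays 991 were lower. At the same time 366 of them (34.0%) were higher after transfer than in 2-cell embryos, against 9.82% of all genes, and 8 were lower. Of 1041 lost genes detected on all zygote arrays, 488 were detected on both transfer arrays and 215 on neither.

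The genes raised in drug controls stood near their zygote level after interphase transfer. Their median relative to the zygote mean was 0.00 on transfer A and -0.05 on transfer B, against 2.26 and 2.27 on the 2-cell arrays. Of the 1138 raised genes, 71 were higher after transfer than in zygotes (6.24%, all genes 5.43%) and 82 lower (7.21%), and 878 were lower than in 2-cell embryos (77.2%, all genes 16.6%). The lost count of 412 was 280 without transfer B, 468 without transfer A, 274 with median scaling and 104 with a variance per group. The count of 366 was 39 with median scaling and 203 with a variance per group.

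**Figure D5:**
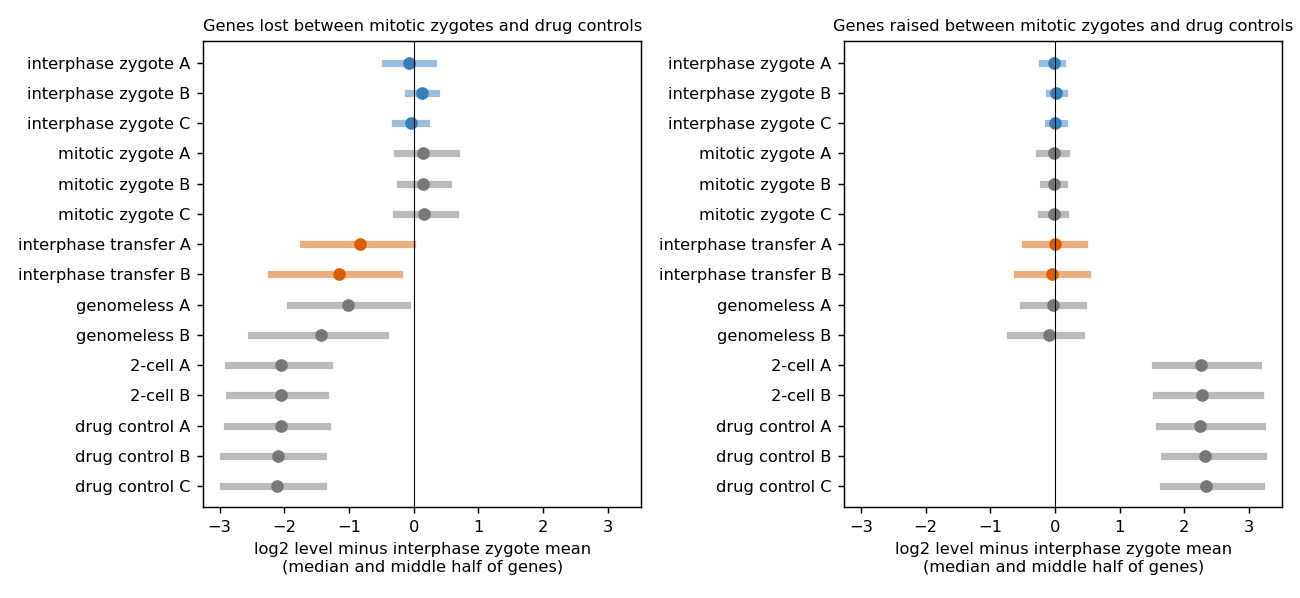
Log2 level minus the interphase zygote mean (x axis) on each array, for 1077 genes lost (left) and 1138 genes raised (right) between mitotic zygotes and drug controls. Points are medians and bars the interquartile range over genes. Transfer arrays (orange) lie at -0.83 and -1.16 on the left, short of the 2-cell arrays at -2.05 and -2.06, and at 0.00 and -0.05 on the right.

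Some RNAs that normal embryos had lost lay near or above zygote levels after transfer, as the choice of genes favoured. Transfer and 2-cell embryos differed in 26.4% of genes, and 2-cell embryos and zygotes in 31.6%. Of the 1355 genes lower in 2-cell embryos than in zygotes, 578 (42.7%) were also called lower after transfer than in zygotes, the same zygote arrays serving both. There were 402 genes (4.71% of all, and 29.7% of those lower in 2-cell embryos) called lower in 2-cell embryos than in zygotes and higher after transfer than in 2-cell embryos. These contrasts share the 2-cell arrays, so the number only describes how the following genes were chosen, by their difference from 2-cell embryos. Cttnbp2nl, a partner of the STRIPAK phosphatase complex, read 10.91, 11.62 and 11.91 in zygotes, 11.73 and 11.49 after transfer, and 7.01 and 6.19 in 2-cell embryos. Psenen, a subunit of the gamma-secretase, read 11.23, 12.60 and 12.86, then 12.35 and 12.75, then 7.46 and 8.47. In both, transfer arrays fell within the zygote range. Sult2a2, a sulphotransferase, read 9.79, 10.35 and 10.72 in zygotes, 10.13 and 10.96 after transfer and 6.30 and 6.08 in 2-cell embryos, where it was undetected.

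The other 5 genes of this kind were Epb41l3, Fndc3a, Prelp, Zdhhc8 and Arf3. Epb41l3, a membrane skeleton protein, differed from zygotes by 0.09 ± 0.90 (adjusted p = 0.969), and Fndc3a by 0.57 ± 0.70 (0.648), with transfer arrays at 9.55 and 12.29. Prelp, of the extracellular matrix, differed by 0.75 ± 0.61 (0.443), the palmitoyltransferase gene Zdhhc8 by 1.06 ± 0.54 (0.209) and the GTPase gene Arf3 by 1.30 ± 0.78 (0.289). A difference of more than 1 log2 unit from zygotes is within the 95% interval of each of the 5. In the dim genomeless B, Cttnbp2nl, Epb41l3 and Psenen read 6.15, 6.10 and 6.63, and in genomeless A 11.75, 10.39 and 11.29.

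Interphase transfer embryos and genomeless embryos lay on the same 2 chips and differed in few called genes in the main fit. Transfer A correlated at 0.612 with genomeless B, and transfer B at 0.647 and 0.675 with genomeless A and B, beside 0.674 between the transfer arrays. Of the 8527 genes, 78 were called (0.915%), 49 higher after transfer (0.575%) and 29 lower (0.340%), with 1132 below an unadjusted p of 0.05. Sult2a2 was higher after transfer (3.52 ± 0.57, adjusted p = 0.0133), at 8.12 and 5.94 on genomeless A and B. Rpp25 was 4.39 ± 0.92 higher (0.042), and Rpl8 1.60 ± 0.35 (0.0495). Pdap1 was lower after transfer (-3.08 ± 0.63, 0.0398), at 10.60 and 9.89 in genomeless embryos. Of the 1077 genes lost in drug controls, 20 were higher and 4 lower than in genomeless embryos. The calls depended on the fit, with 209 for 21 separate arrays and 129 with chip as a random block. There were 46 without zygote C and 0 by limma under median scaling, array weights or a variance per group. Fits that left 1 transfer array gave more calls than the main fit. With a block for the replicate letter, which in this contrast is also the chip, 25 genes were called.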

How the data were processed

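Illumina bead arrays were read out in GenomeStudio per the submitters' processing notes, with no version stated in the sources used here. The deposited intensity of each probe is background-subtracted and not normalised between arrays, per the file headers, beside a deposited detection p-value. The authors' processed table multiplies that intensity by 1 factor for each array. With limma 3.58.1 (R 4.3.3), signals were corrected by normexp (offset 50), brought to equal quantiles and put on the log2 scale. A probe was kept if 2 or more arrays had detection p below 0.01 (11541 of 24613), and a gene took its brightest probe (8527 genes, 1377 with several). GEO's platform annotation gave 1 symbol for 20984 probes, several for 1 and none for 3628. Arrays of a group differing by an SD below 0.2 were averaged as repeats, leaving 19 samples. Group means were fitted over 8 groups (11 residual degrees of freedom) with moderated variances, and genes with a Benjamini-Hochberg adjusted p below 0.05 were called. The fit was tested on simulated data in which each group had its own median spread and 200 of 8527 genes were changed. At changes of 1, 2 and 3 log2 units, 42%, 98% and 100% of them were recovered. The fit also called 68, 82 and 81 unchanged genes, more than an adjusted p of 0.05 allows.

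Members and the 21 gene lists were chosen with earlier results of these data known. Named genes were the 12 lowest called genes detected on all zygote arrays, the 8 highest called and detected on both transfer arrays, the 8 closest to 0 by confidence interval, the 8 lower in 2-cell embryos than in zygotes and furthest above 2-cell embryos after transfer, up to 4 members per list and 16 chosen genes. Other list members, the variance per group, the drug control set and the alternative without transfer A and genomeless A of chip 6 were chosen after values were seen. Replicate letters did not pair transfer with zygote samples (same-letter residual correlations 0.10 and 0.06). Transfer and genomeless arrays of the same letter lay on the same chip, which the main fit leaves out. Alternatives changed background correction, scaling, filter, probe choice, samples, weights and blocks. The number of arrays limits precision.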

Additional observations from a re-analysis of the deposited data

How the results depend on the processing

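No named gene that was called reversed under any alternative. The setting named here by chip 6 left out only transfer A and genomeless A, while arrays of M phase transfer embryos on that chip stayed in the fit. The 1490 calls between transfer embryos and zygotes were 687 with median scaling, 407 with the 5 arrays alone, 371 with array weights, 280 with a variance per group, 3027 without the A arrays of chip 6, and 953 to 2151 when 1 array was left out. Higher genes (463) numbered 67 with median scaling, 259 in the mean-scaled values, 858 with no detection filter, 145 with the 5 arrays, 899 without dim arrays, 79 with array weights, 66 with a variance per group, 1360 without chip 6 and 254 to 871 with 1 array left out. Lower genes (1027) numbered 620, 1548 in the mean-scaled values, 262, 292 with array weights, 214 and 1667 in these settings, and 625 to 1280 with 1 array left out. Against 2-cell embryos the 2249 calls were 959 with median scaling, 1240 with array weights and 1231 with a variance per group, and the 2698 calls between 2-cell embryos and zygotes were 4686 and 4209 with these weights. Against genomeless embryos the 78 calls were 0 with median scaling (limma, 220 at an unadjusted p below 0.05), 0 with array weights (244), 0 with a variance per group (242), 209 with 21 separate arrays, 129 with chip as a random block, 1312 without chip 6 and 46 to 753 with 1 array left out. The 402 genes lower in 2-cell embryos than in zygotes and higher after transfer than in 2-cell embryos were 40 with median scaling and 776 without dim arrays. With a replicate block the main calls were 1234, where transfer and zygote samples share only a letter. The calls against genomeless embryos were 25, and in that contrast arrays of the same letter also shared a chip. With chip as a random block the main calls were 1289. The causes of these shifts were not tested. Where a setting leaves 1 transfer array, that array is assumed to vary like the other groups. Of the single-gene results under alternatives, 2291 stayed on their side of the threshold in the same direction, called or not, 240 lost a call, 50 gained one and 91 uncalled values changed sign. Transfer B limits what can be read of RNAs below its detection floor.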

Other observations

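Some genes outside the lists, chosen after their values were seen, belong to the 139 whose call held in the 17 alternatives with both transfer arrays. Polrmt, the mitochondrial RNA polymerase, read 10.12, 9.61 and 9.69 in zygotes and 6.56 and 6.43 after transfer, undetected on both and at least 5.02-fold lower (limma, adjusted p = 4.04e-05). Its 2-cell mean was 10.81. The mitochondrial ribosome gene Dap3 read 13.14, 13.36 and 13.18 against 10.37 and 10.23 (-2.92 ± 0.23, 9.87e-06), detected on both transfer arrays and near its 2-cell mean of 9.81. Alad, an enzyme of heme synthesis like Urod, was at least 7.04-fold lower (9.72e-05), with 10.0 on average in 2-cell embryos. Olig1, known as a transcription factor of oligodendrocytes, was undetected in zygotes and read 9.07 and 9.79 after transfer, at least 7.2-fold higher (0.000339), against 6.09 and 5.96 in genomeless embryos.

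1 gene that set transfer apart from genomeless embryos was also chosen after its values were seen. Leprotl1 read 7.20 and 6.0 after transfer and 10.39 and 10.78 in genomeless embryos (-3.99 ± 0.52, adjusted p = 0.004). With median scaling, array weights or a variance per group no gene was called in this contrast.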
